A study of Mus musculus with 8 samples.

Results

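Cytochrome P450 families 1 to 3 in mouse liver were described across 8 livers. The members are all genes whose mouse symbol is Cyp1, Cyp2 or Cyp3 followed directly by a letter and a number, which gave 58 of the 27453 genes listed. The rule used symbols only and no measured value. It leaves out pseudogenes and also Cyp3a41a and Cyp3a41b, whose symbols end in a letter. Cyp2c with 15, Cyp2d and Cyp2j with 8 each and Cyp3a with 7 are the largest subfamilies.

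P450 enzymes of these families are haem proteins of the endoplasmic reticulum that insert oxygen into drugs, environmental chemicals, steroids, bile acids, retinoids and fatty acids. They draw electrons from P450 oxidoreductase (Por) and need haem, whose synthesis in liver is limited by Alas1. Most of the genes sit in tandem arrays, some of them as near-identical copies, and hepatocytes hold most of the transcripts. Transcription of the genes is governed by receptors for foreign chemicals (Ahr, Nr1i2 known as PXR, Nr1i3 known as CAR) and by liver factors such as Hnf4a. It is also governed by the daily clock through Dbp, Tef and Hlf, and by the sex-specific pattern of growth hormone release acting through Stat5b, Bcl6 and Cux2.

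The data are nanopore direct RNA libraries, 1 per animal by the animal numbers in the deposited files, from livers of C57BL/6JN mice. This assay reads native RNA molecules through a pore, so 1 read stands for 1 molecule and levels are compared between genes as CPM, reads scaled to a common library total, without dividing by length. Libraries O1 and O2 (O-titled males), Y1 and Y2 (Y-titled males), O3 and O4 (O-titled females) and Y3 and Y4 (Y-titled females) are named by their titles. The labels conflict on age: the age field gives 12 weeks for O and 80 weeks for Y, while the series text contrasts young and old animals and the treatment field makes the old ones the treated set. Which title marks the old mice was therefore not decided here, and fold changes are O over Y.

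Libraries held 545171 (Y2) to 2593200 (O1) mapped reads, and members took 1.43% to 2.03% of them. A count of 0 allows up to 1.15 CPM in O1 and up to 5.91 CPM in Y2, the level of 3 reads. CPM here are TMM-scaled, by edgeR's default library factors. Alb, the albumin gene, stood at 42959 (Y1) to 79183 CPM (Y3), and the 5 hepatocyte markers found summed to 68742 to 112584 CPM per library, against 469.8 to 1198 CPM for 10 Kupffer cell and macrophage markers. O3 stands apart among the females: major urinary protein genes took 0.287% of its reads and 3.04% to 4.65% of those of the other females. In whole tissue, fewer cells of a type and less RNA per cell cannot be told apart.

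The close copies matter for what follows, because reads can be split between them and the handling of such reads was not given in the sources used here. Between the coding sequences of the most read transcripts (GENCODE M21, mm10), Cyp2a4 and Cyp2a5 differed at 23 of 1482 bases, Cyp2c67 and Cyp2c69 at 34 of 1473, Cyp3a25 and Cyp3a59 at 38 of 1509, Cyp2c67 and Cyp2c68 at 42 of 1473, and Cyp3a41a and Cyp3a41b at 2 of 1512. Averaged over libraries with equal weight, the mean read length was 80.9% of the transcript's length for Cyp2a4, where O2 and Y1 held 2 reads each. It was 66.2% for Cyp2a5, 96.8% for Cyp2c69, and 46.7% for Cyp2c38, 41.5% for Cyp2j6 and 30.1% for Cyp2u1, whose transcripts are longer. Reads of Cyp2c67 averaged 940, 946 and 984 bases in O4, Y3 and Y4, 1216 in O3, and 1324 to 1378 in males. The part of read assignment in the folds of Cyp2c67, Cyp2c40 and Cyp2c69 was not tested. The stretch of coding bases 592 to 741 of Cyp2a5 and Cyp2a4 holds 7 of their 23 differences and shows how little separates a gene read almost only in females from one read in every library. This coding stretch and those below were chosen as the stretches of their length with the most differing positions. Capitals mark the bases at which the Cyp2a4 letters differ from those of Cyp2a5.
Cyp2a5: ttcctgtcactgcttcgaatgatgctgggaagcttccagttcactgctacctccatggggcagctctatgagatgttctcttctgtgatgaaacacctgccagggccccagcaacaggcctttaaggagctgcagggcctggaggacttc
Cyp2a4: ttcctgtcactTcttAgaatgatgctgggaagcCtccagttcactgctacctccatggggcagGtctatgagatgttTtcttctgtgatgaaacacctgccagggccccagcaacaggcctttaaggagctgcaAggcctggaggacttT

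For Cyp2c67, Cyp2c68 and Cyp2c69, 3 genes of the same array on chromosome 19 with quite different female to male ratios, coding bases 200 to 319 are shown. Capitals mark differences from Cyp2c67, 8 in Cyp2c68 and 7 in Cyp2c69, of 42 and 34 over all 1473 coding bases.
Cyp2c67: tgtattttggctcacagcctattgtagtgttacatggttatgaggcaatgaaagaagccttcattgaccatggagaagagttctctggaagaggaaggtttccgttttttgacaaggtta
Cyp2c68: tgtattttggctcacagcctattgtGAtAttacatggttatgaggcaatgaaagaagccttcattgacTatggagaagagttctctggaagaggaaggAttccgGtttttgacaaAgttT
Cyp2c69: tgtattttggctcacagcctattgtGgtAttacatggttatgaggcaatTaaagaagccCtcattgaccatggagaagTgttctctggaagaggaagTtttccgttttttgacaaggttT

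The female Cyp3a genes of chromosome 5 are shown at coding bases 760 to 879, where Cyp3a16 and Cyp3a41a have 20 and 9 differences from Cyp3a44, in capitals. Over all 1512 coding bases they have 115 and 64.
Cyp3a44: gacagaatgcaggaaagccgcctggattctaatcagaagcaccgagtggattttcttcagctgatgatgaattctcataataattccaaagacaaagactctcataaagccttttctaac
Cyp3a16: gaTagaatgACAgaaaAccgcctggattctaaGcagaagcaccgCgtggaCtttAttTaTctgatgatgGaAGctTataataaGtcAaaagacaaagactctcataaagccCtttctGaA
Cyp3a41a: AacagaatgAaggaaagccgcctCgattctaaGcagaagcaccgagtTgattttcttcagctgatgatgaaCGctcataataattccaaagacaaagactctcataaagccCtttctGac

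Of the 58 members, 9 had no read in any library, 10 more had 1 to 21 reads in all, and 39 passed the count filter and were tested. Passing asked for enough reads in at least 2 libraries, so a gene read in 1 sex alone passed through that sex, and counts over the tested members are not counts over all members. Cyp2e1, which oxidises ethanol and paracetamol, was the most abundant, followed by Cyp3a11, the main Cyp3a enzyme of mouse liver and a PXR target, and Cyp2c29, a CAR-induced epoxygenase. Cyp2e1 stood at 3935 and 4534 CPM in O1 and O2, 4006 and 2739.6 in Y1 and Y2, 2357 and 4284 in O3 and O4, and 3700.2 and 3583 in Y3 and Y4. Cyp3a11 stood at 1771 and 2009.9 CPM in O1 and O2, 2496 and 3864 in Y1 and Y2, 2853 and 953 in O3 and O4, and 2603 and 3388 in Y3 and Y4. Cyp2c29 stood at 1173 and 1563 CPM in O1 and O2, 1634 and 1584 in Y1 and Y2, 1708 and 1365 in O3 and O4, and 1269 and 1387 in Y3 and Y4. All 3 overlapped between the 4 O and the 4 Y libraries and between the sexes, and none passed any of the tests. Within males, Cyp3a11 and Cyp2c29 were lower in O without overlap. Cyp3a11 was lowest in O4 and highest in Y2. In O4 its close relatives stood highest, with 4168 CPM for Cyp3a41a and Cyp3a41b together and 671 for Cyp3a44. The coding sequences of Cyp3a11 and Cyp3a41a differ at 73 of 1512 bases, and the part of read assignment in the Cyp3a11 levels was not tested.

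The next most abundant were Cyp2d26 and Cyp2d10, at means of 880.3 and 786 CPM over the 8 libraries. Cyp1a2, which oxidises caffeine and aromatic amines, had 340.3 and 396 CPM in O1 and O2, 437 and 471 in Y1 and Y2, 245 and 500.5 in O3 and O4, and 413 and 598 in Y3 and Y4. Cyp2j5, an arachidonic acid epoxygenase, had 369 and 409.7 CPM in O1 and O2, 425 and 471 in Y1 and Y2, 363 and 345 in O3 and O4, and 403 and 423 in Y3 and Y4. The vitamin D hydroxylase gene Cyp2r1 had 30.6 and 16.0 CPM in O1 and O2, 22.0 and 11.8 in Y1 and Y2, 25.9 and 19.5 in O3 and O4, and 13.6 and 22.1 in Y3 and Y4. For all 3 the sexes overlapped and the 4 O and 4 Y libraries overlapped, and none was called. Within a sex, Cyp2j5 was lower in O without overlap in both males and females, and Cyp1a2 in males. Cyp2j5 ranged only from 345 to 471 CPM over the 8 libraries.

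**Figure D1:**
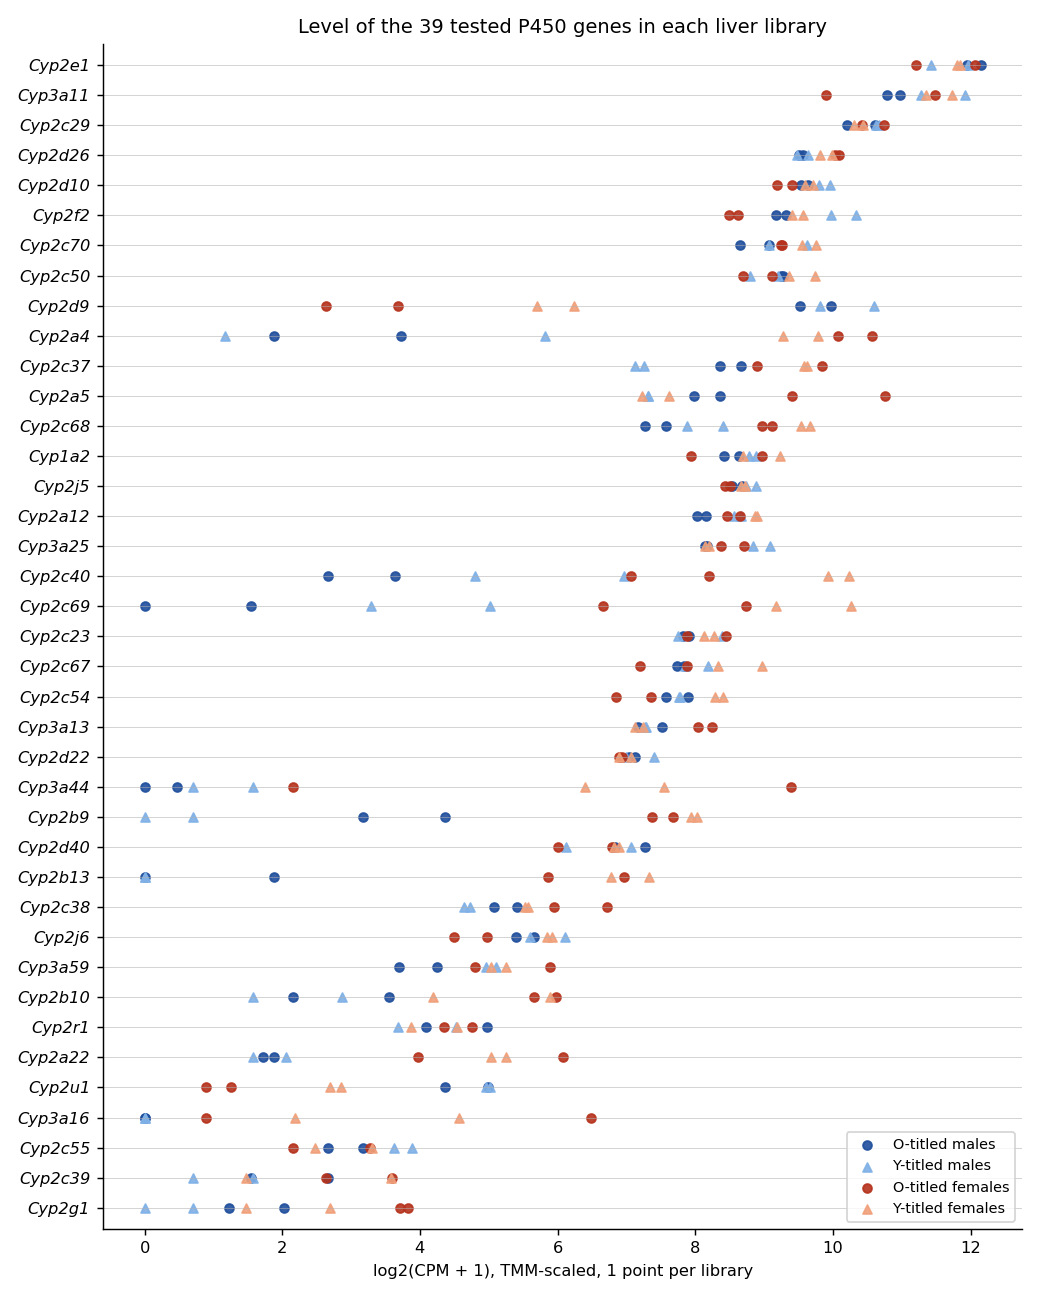
Level of each of the 39 tested members as log2(CPM + 1), with 1 point per library, colours for sex and symbols for title (circles O, triangles Y). For the 3 genes at the top the sexes overlap and the titles overlap, while Cyp2a4, Cyp2c40, Cyp2c69, Cyp3a44, Cyp2b9 and Cyp2b13 lie to the right in females and Cyp2d9 and Cyp2u1 in males.

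More members were called by sex than by title. With edgeR's quasi-likelihood test, title as covariate and Benjamini-Hochberg adjustment over all 7668 genes tested at 0.05, 14 of 39 members were called between females and males, against a background of 3.00% of all genes. Of these, 11 were higher in females (background 1.79%) and 3 in males (background 1.21%). The median log2 fold, female over male, was 0.33 over the tested members and -0.004 over all genes, and 22 members had an unadjusted p under 0.05. The share of all genes under that unadjusted p was not counted, here or below, so such counts show no excess. By measured CPM, the libraries of the sexes did not overlap for 13 members higher in females (3.17% of all genes) and 2 higher in males (3.36%). The 13 include Cyp3a16, with 1 read in O3 (0.864 CPM) and 0 in males, and Cyp3a44, with 3.46 CPM in O3 and 1.97 in Y2. Both O3 values lie under 5.91 CPM, the level of 3 reads in Y2, so this depth does not resolve whether these genes overlap. No test of the members as a list was made. Below, a call is lost when its adjusted p passes 0.05 without a library or under an alternative, and equal depth means each library thinned to 545171 reads.

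In the Cyp2a subfamily, summed reads were 3.77-fold higher in females (2174 ± 1083 CPM, SD, n = 4) than in males (576 ± 49.9), with no overlap. Cyp2a4, a steroid hydroxylase known for its female bias, had 12.2 and 2.67 CPM in O1 and O2, 1.25 and 55.1 in Y1 and Y2, 1080.1 and 1519 in O3 and O4, and 876 and 619 in Y3 and Y4. Every female library was above every male one, and the male Y2 with 55.1 CPM stood far above the other 3 males. Cyp2a4 was higher in females by log2 6.28 ± 0.98, adjusted p = 0.0411. Cyp2a22, in the same array, had 2.29 and 2.67 CPM in O1 and O2, 3.14 and 1.97 in Y1 and Y2, 14.7 and 66.7 in O3 and O4, and 31.8 and 37.2 in Y3 and Y4, a log2 fold of 3.87 ± 0.62, adjusted p = 0.0162. Cyp2a12, another steroid hydroxylase, did not pass (0.37 ± 0.11, adjusted p = 0.0784). The call for Cyp2a4 was lost without O1, O2, O3, O4, Y1, Y3 or Y4 and under no count filter or a fit without title (adjusted p up to 0.189), and that for Cyp2a22 without O1, O2, Y1, Y2, Y3 or Y4 and under limma voom (adjusted p up to 0.227).

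Upstream stretches of 246 bases before the RefSeq starts of Cyp2a5 and Cyp2a4 (GRCm38.p6, plus strand, chr7:26835089-26835334 and chr7:26306942-26307187) are shown because the 250 upstream bases of the pair are 98.0% identical although the genes differ so much between the sexes. Capitals mark the letters TATAAA, at position -29 in Cyp2a5 and -28 in Cyp2a4, counted from the RefSeq start. The 246 printed bases are the first of the 250, so the last few before that start are left out. The GENCODE M21 genes begin inside these windows, in or just before the marked letters, at chr7:26835305 (Cyp2a5) and chr7:26307169 (Cyp2a4).
Cyp2a5: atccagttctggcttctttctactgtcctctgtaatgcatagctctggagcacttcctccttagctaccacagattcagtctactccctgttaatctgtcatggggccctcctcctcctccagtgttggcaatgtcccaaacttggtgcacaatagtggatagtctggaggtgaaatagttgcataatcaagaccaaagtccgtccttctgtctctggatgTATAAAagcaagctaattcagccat
Cyp2a4: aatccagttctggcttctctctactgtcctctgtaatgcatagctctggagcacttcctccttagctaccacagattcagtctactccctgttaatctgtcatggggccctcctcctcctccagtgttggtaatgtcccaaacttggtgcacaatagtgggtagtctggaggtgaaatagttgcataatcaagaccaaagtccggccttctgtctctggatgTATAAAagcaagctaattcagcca

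All 3 tested Cyp2b genes, the subfamily of phenobarbital response, were higher in females, and their sum was 28.4-fold higher (378 ± 71.5 against 13.3 ± 10.8 CPM). Cyp2b9, a testosterone hydroxylase, had 19.5 and 8.01 CPM in O1 and O2, 0.627 and 0 in Y1 and Y2, 165 and 204 in O3 and O4, and 245 and 259.6 in Y3 and Y4. Cyp2b13 had 2.68 and 0 CPM in O1 and O2, 0 and 0 in Y1 and Y2, 124 and 57.0 in O3 and O4, and 108 and 160.3 in Y3 and Y4. Cyp2b10, the classical CAR target, had 3.44 and 10.7 CPM in O1 and O2, 6.27 and 1.97 in Y1 and Y2, 62.2 and 49.4 in O3 and O4, and 17.3 and 58.5 in Y3 and Y4. The sexes did not overlap for any of the 3. Log2 folds, female over male, were 4.50 ± 0.69, adjusted p = 0.0385 for Cyp2b9, 3.17 ± 0.50, adjusted p = 0.0139 for Cyp2b10 and 6.30 ± 0.67, adjusted p = 0.00472 for Cyp2b13. Males held 7 reads of Cyp2b13, all in O1, against 526 in females, a ratio of 85.1 with a 95% counting interval of 41.0 to 213. Intervals and floors here cover counting error only. The Cyp2b9 call was lost without O2, O3, O4, Y1, Y2, Y3 or Y4 and under no count filter or a fit without title (adjusted p up to 0.149), that of Cyp2b10 without O1, O4, Y1 or Y2 (adjusted p up to 0.065) and that of Cyp2b13 without O1 and under limma voom (adjusted p up to 0.0797).

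Of the 13 tested Cyp2c genes, 4 were higher in females and 0 in males, and the Cyp2c sum was 1.61-fold higher in females (6282 ± 1487 against 3905 ± 319 CPM, no overlap). All 4 lie in the array of 14 Cyp2c genes at chr19:39007019-40187333. Cyp2c40, an arachidonic acid hydroxylase, had 11.5 and 5.34 CPM in O1 and O2, 27.0 and 124 in Y1 and Y2, 133 and 294 in O3 and O4, and 1206 and 973 in Y3 and Y4. Cyp2c69 had 1.91 and 0 CPM in O1 and O2, 8.78 and 31.5 in Y1 and Y2, 100.2 and 425 in O3 and O4, and 1233 and 577 in Y3 and Y4. Cyp2c68 had 189 and 153 CPM in O1 and O2, 235 and 337 in Y1 and Y2, 553 and 500.5 in O3 and O4, and 814 and 739 in Y3 and Y4. In each, all females exceeded all males, but the lowest female of Cyp2c40, O3, was close to the highest male, Y2.

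Log2 folds, female over male, were 1.53 ± 0.13, adjusted p = 1.03e-07 for Cyp2c68, 4.21 ± 0.61, adjusted p = 0.0323 for Cyp2c40 and 6.28 ± 0.88, adjusted p = 0.0312 for Cyp2c69. Cyp2c38, an arachidonic acid epoxygenase, had 32.9 and 41.4 CPM in O1 and O2, 23.8 and 25.6 in Y1 and Y2, 60.5 and 104 in O3 and O4, and 46.3 and 45.2 in Y3 and Y4. It was higher in females by log2 1.09 ± 0.19, adjusted p = 0.00137, with no overlap. Cyp2c67 lies beside Cyp2c68 and did not pass (0.24 ± 0.26, adjusted p = 0.831), nor did Cyp2c70, the bile acid hydroxylase that makes muricholic acids in mice (0.33 ± 0.13, adjusted p = 0.249). Cyp2c37, chosen here after its values were seen because its sexes did not overlap, did not pass either (1.65 ± 0.40, adjusted p = 0.153). The Cyp2c68 call held under all 16 alternatives, and that of Cyp2c38 was lost under a fit without title (adjusted p up to 0.164). The Cyp2c40 call was lost without O1, O2, O3, O4, Y1, Y3 or Y4 and under a fit without title (adjusted p up to 0.285), and that of Cyp2c69 without O1, O2, Y1, Y2, Y3 or Y4 and under limma voom or a fit without title (adjusted p up to 0.149).

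The letters CAAAGTCCA, a form of the Hnf4a motif, were found on either strand in the 250 bases before the RefSeq start in 8 of the 50 members with an entry (Cyp2c40, Cyp2c65, Cyp2c67, Cyp2c68, Cyp2c69, Cyp2c70, Cyp3a11 and Cyp3a16), and in 0.451% of 27025 genes. The 4 neighbours Cyp2c67, Cyp2c68, Cyp2c40 and Cyp2c69 are copies of one another (identity over the 250 upstream bases, as placed, from 63.2% for Cyp2c40 and Cyp2c67, whose windows aligned over 170 bases, to 92.8% for Cyp2c68 and Cyp2c69), so they do not count separately, and the match is present in Cyp2c67, which was not called by sex, as well as in the other 3. Their 250 upstream bases (GRCm38.p6, minus strand, chr19:39649043-39649292, chr19:39741102-39741351, chr19:39812815-39813064 and chr19:39886770-39887019) follow with matched letters in capitals, CAAAGTCCA at -125, -77, -45 and -75 in that order, TATAAA in Cyp2c67, and the reverse of GCGTG in Cyp2c68.
Cyp2c67: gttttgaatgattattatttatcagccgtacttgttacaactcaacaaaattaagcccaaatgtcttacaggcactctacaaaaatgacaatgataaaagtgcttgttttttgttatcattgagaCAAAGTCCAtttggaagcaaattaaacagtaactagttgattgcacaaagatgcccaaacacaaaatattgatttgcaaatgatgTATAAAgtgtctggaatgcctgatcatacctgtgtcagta
Cyp2c68: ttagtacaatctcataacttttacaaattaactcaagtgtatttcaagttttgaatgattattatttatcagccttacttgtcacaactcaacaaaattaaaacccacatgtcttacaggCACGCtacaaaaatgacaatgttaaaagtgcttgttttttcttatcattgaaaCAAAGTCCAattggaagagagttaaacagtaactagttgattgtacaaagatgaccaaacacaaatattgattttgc
Cyp2c40: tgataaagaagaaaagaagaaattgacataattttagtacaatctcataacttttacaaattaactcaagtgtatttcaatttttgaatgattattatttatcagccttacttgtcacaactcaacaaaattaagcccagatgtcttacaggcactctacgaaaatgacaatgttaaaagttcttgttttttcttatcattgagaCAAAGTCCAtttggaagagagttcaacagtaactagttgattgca
Cyp2c69: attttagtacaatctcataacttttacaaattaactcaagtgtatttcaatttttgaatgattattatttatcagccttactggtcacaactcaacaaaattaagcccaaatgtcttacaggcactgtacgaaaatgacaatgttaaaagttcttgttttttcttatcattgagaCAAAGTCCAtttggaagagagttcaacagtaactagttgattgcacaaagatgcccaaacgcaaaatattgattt

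Other letters were searched in the same windows, on both strands. TATAAA was found in 23 of 50 members against 14.3% of all genes, GCGTG, the core bound by Ahr, in 8 members against 30.9%, TTCNNNGAA, the Stat5 form, in 2 against 8.13%, and TTATGTAA, the form bound by Dbp, Tef and Hlf, in 0 against 0.977%. The members with GCGTG included Cyp1a1 and Cyp1b1, which Ahr is known to induce. A match describes the letters only, and no match says only that these letters are not in this window.

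In Cyp2d, 1 member was higher in females and 1 in males, and the sum was 0.683 times the male level in females (1990.4 ± 97.7 against 2915 ± 503 CPM). Cyp2d9, a testosterone hydroxylase known from male livers, had 734 and 999.6 CPM in O1 and O2, 1543 and 902 in Y1 and Y2, 5.18 and 11.8 in O3 and O4, and 50.9 and 74.4 in Y3 and Y4. Every male was far above every female. Cyp2d26 had 758 and 729 CPM in O1 and O2, 799 and 713 in Y1 and Y2, 1084 and 1049.6 in O3 and O4, and 1014 and 897 in Y3 and Y4, again with no overlap, but in the other direction. Log2 folds were -5.19 ± 0.61, adjusted p = 0.0169 for Cyp2d9 and 0.43 ± 0.11, adjusted p = 0.0299 for Cyp2d26. The Cyp2d9 call was lost without O1, O4, Y1 or Y3 and under a fit without title (adjusted p up to 0.0764), and that of Cyp2d26 without O1, O2, O3, O4, Y1, Y2 or Y3 and under equal depth, a fit without title or the non-robust fit (adjusted p up to 0.123).

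No member of Cyp3a was called by sex, although the female-predominant members were almost unread in males. Cyp3a44, named here after its values were seen, had 0.382 and 0 CPM in O1 and O2, 0.627 and 1.97 in Y1 and Y2, 3.46 and 671 in O3 and O4, and 185 and 83.3 in Y3 and Y4, which is 1267 female reads and 3 male reads, a ratio of 478 with a 95% counting interval of 163 to 2323. Cyp3a16, known as the fetal form, had 158 female reads, 128 of them in O4, and 0 male reads, and the 95% counting interval of the ratio of summed reads starts at 48.0. Neither passed the test (adjusted p = 0.205 and 0.659), and the females themselves ranged from 3.46 CPM of Cyp3a44 in O3 to 671 in O4. The near-identical Cyp3a41a and Cyp3a41b, no members by the rule, had together 210.0 CPM in O3, 4168 in O4, 1911 in Y3 and 628 in Y4, and at most 5.34 in a male. O3, the female library with few Mup reads, was the lowest female for Cyp3a44, for Cyp3a16 and for this sum, and the part of that in these results was not tested.

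The remaining calls by sex were Cyp2u1, a fatty acid hydroxylase, higher in males (-2.99 ± 0.35, adjusted p = 1.26e-05, held under all 16 alternatives), Cyp2g1, known from olfactory tissue, higher in females (2.31 ± 0.55, adjusted p = 0.0233), and Cyp2f2. Cyp2g1 had only 41 reads in females and 10 in males, and its call was lost without O1, O2, O3, O4, Y1 or Y3 and under a fit without title (adjusted p up to 0.225). Cyp2f2, which activates naphthalene, was lower in females (-0.68 ± 0.11, adjusted p = 8.03e-04); its libraries overlapped between the sexes, and without title in the fit it did not pass (adjusted p up to 0.656).

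**Figure D2:**
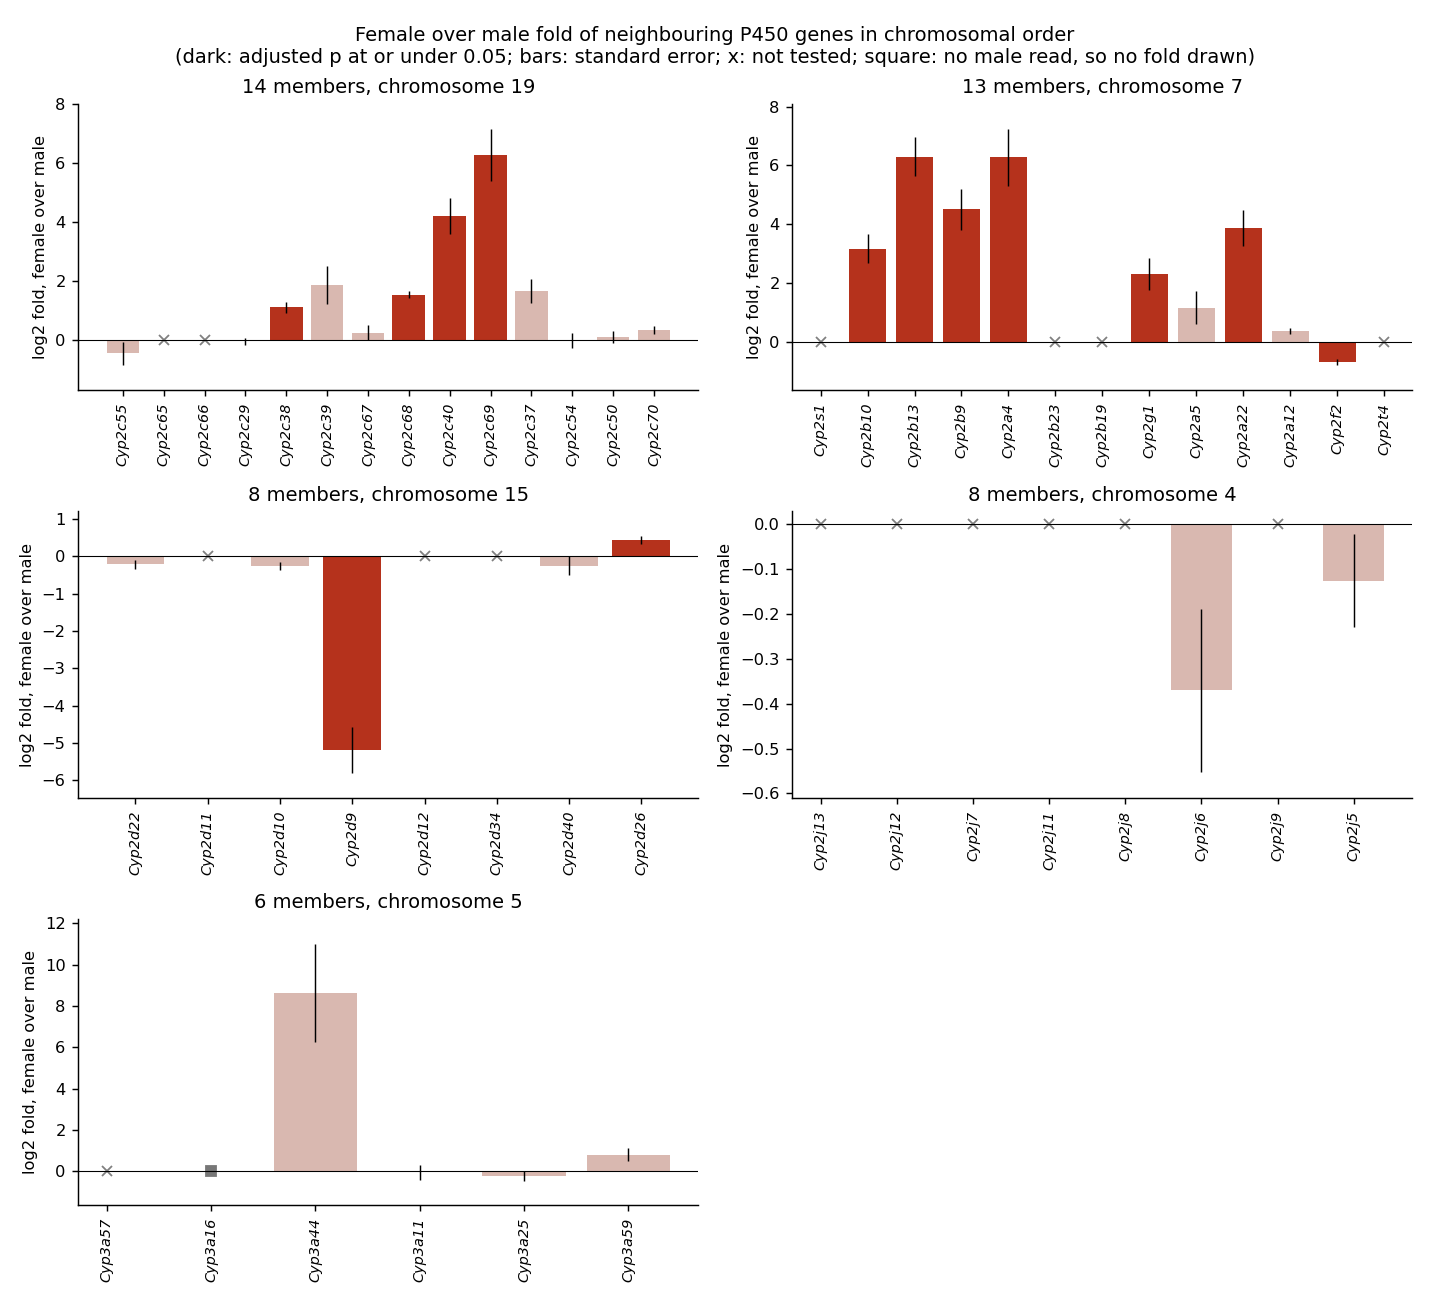
Female over male log2 fold of members in chromosomal order in the 5 arrays with 6 or more members, with approximate standard errors. Called members (dark) sit next to members that were not called (pale), as in the run Cyp2c68, Cyp2c40 and Cyp2c69 on chromosome 19 and in Cyp2d9 between Cyp2d10 and the untested Cyp2d12 on chromosome 15.

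Between O and Y, 5 of 39 members were called with sex as covariate, against 4.06% of all genes. Only Cyp2c38 was higher in O (background 2.18%), and Cyp2a12, Cyp2c68, Cyp2f2 and Cyp2j6 were lower (background 1.88%). With the replicate number as a block in place of sex, 2 members were called. The median log2 fold was -0.20 over the tested members and 0.01 over all genes. An unadjusted p under 0.05 was seen for 14 members, with no share of all genes counted. Ranges of the 4 O and 4 Y libraries were apart for 1 member upward, Cyp2a5 (4.15% of all genes), and 1 downward, Cyp2f2 (4.26%).

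Cyp2f2, the naphthalene-activating enzyme, had 575 and 637 CPM in O1 and O2, 1004 and 1294 in Y1 and Y2, 359 and 393 in O3 and O4, and 675 and 757 in Y3 and Y4. Each O library was below each Y library, and O was lower within each sex without overlap. The O mean was 491 ± 136 and the Y mean 932 ± 279 CPM (SD, n = 4), a log2 fold of -0.93 ± 0.11, adjusted p = 3.85e-05. The call was kept under 16 of 17 alternatives and lost in a fit without sex (adjusted p = 0.14). The log2 fold was -0.92 ± 0.15 in males and -0.93 ± 0.15 in females. Cyp2f2 is known from the periportal zone of the lobule, and of 7 other periportal and 7 pericentral genes listed, 0 were called between O and Y. Their summed levels overlapped, at 5504 to 9449 CPM in O and 5371 to 8593 in Y for the periportal list. Of that list, Ass1 alone stood at 2240 (Y3) to 4650 CPM (O3). The part of lobule zone in the Cyp2f2 result was not tested.

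Cyp2c68 had, within each sex, less in O than in Y (values above), a log2 fold of -0.63 ± 0.12, adjusted p = 0.00476, kept under 16 of 17 alternatives and lost in a fit without sex (adjusted p = 0.768). Cyp2j6 had 40.9 and 49.4 CPM in O1 and O2, 67.7 and 47.3 in Y1 and Y2, 21.6 and 30.6 in O3 and O4, and 56.3 and 59.4 in Y3 and Y4. Cyp2a12 had 261 and 286 CPM in O1 and O2, 378 and 406 in Y1 and Y2, 353 and 400.4 in O3 and O4, and 469 and 474 in Y3 and Y4. Both were lower in O within females, and in males Cyp2a12 was lower without overlap while Cyp2j6 overlapped. Log2 folds were -0.77 ± 0.18, adjusted p = 0.0175 for Cyp2j6 and -0.42 ± 0.11, adjusted p = 0.0276 for Cyp2a12. Cyp2c38, lowest in the Y males and highest in O4, rose by 0.74 ± 0.19, adjusted p = 0.0278. The Cyp2j6 call was lost without O3, Y1, Y3 or Y4 and under DESeq2, equal depth, a fit without sex or the replicate block (adjusted p up to 0.0933), that of Cyp2a12 without O1, O2, O3, Y1, Y2 or Y4 and under DESeq2, a fit without sex, the non-robust fit or the replicate block (adjusted p up to 0.181) and that of Cyp2c38 without O4, Y1, Y3 or Y4 and under DESeq2, equal depth, a fit without sex, the non-robust fit or the replicate block (adjusted p up to 0.544).

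Cyp2a5, which hydroxylates coumarin and oxidises bilirubin, is a member that was called in no comparison, and it was picked for library values after its values were seen. It had 251 and 327 CPM in O1 and O2, 158 and 158 in Y1 and Y2, 680.0 and 1729 in O3 and O4, and 149 and 196 in Y3 and Y4. All O libraries exceeded all Y libraries, which were tight, while O ranged widely, with O4 far above the rest. The difference did not pass (log2 1.87 ± 0.57, adjusted p = 0.194), nor did it within females (2.81 ± 0.53, adjusted p = 0.0756). Cyp2c40 and Cyp2c69 pointed the other way in females, with both O females below both Y females (values above), and did not pass between O and Y (-2.47 ± 0.57, adjusted p = 0.102, and -1.99 ± 0.76, adjusted p = 0.299).

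Summed levels of a subfamily add up reads that may be split between its members. Cyp2a was 2.05-fold higher in O than Y females and overlapped in males, where the ratio was 0.985 and turned to 1.03 on CPM of all mapped reads. Cyp2c was 0.671 times the Y level in O females and 0.903 in O males, where the ranges overlapped on CPM of all mapped reads. Cyp2b was 4.99-fold higher in O than Y males (means 22.2 and 4.43 CPM) and 0.779 times the Y level in O females, without overlap. The male fold rests on few reads: the Cyp2b sum was 1.97 CPM in Y2, under its 3-read level of 5.91, and O1 held 51 reads of Cyp2b9. Cyp2d was 0.928 times the Y level in O females without overlap and 0.838 in O males with overlap. On CPM of all mapped reads, Cyp2b and Cyp2d overlapped in females. Cyp2j was 0.832 times the Y level, with every O library below every Y library on both scales. On TMM-scaled CPM, however, O2 at 460.43 and Y3 at 460.48 were all but equal. The 7 Cyp3a members summed to 0.608 times the Y level in O males without overlap and 0.827 in females with overlap. This sum leaves out Cyp3a41a and Cyp3a41b, with which reads may also be split, and with them added the ratio was 0.609 in males and turned to 1.06 in females, where the O4 sum went from 2491 to 6659.6 CPM. Cyp2e1 overlapped in both sexes, but on CPM of all mapped reads it was higher in O males without overlap. All 58 members summed to 16346 ± 2141 CPM in O and 18837 ± 1819 in Y, overlapping between titles. Within each sex the O sum was lower than the Y sum without overlap, but in females the ranges overlapped on CPM of all mapped reads. This total too leaves out Cyp3a41a and Cyp3a41b, which together had 4168 CPM in O4, 1911 in Y3 and 628 in Y4. With them added, O4 would lie above Y3 and Y4, so the females would overlap. No test was run on sums.

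**Figure D3:**
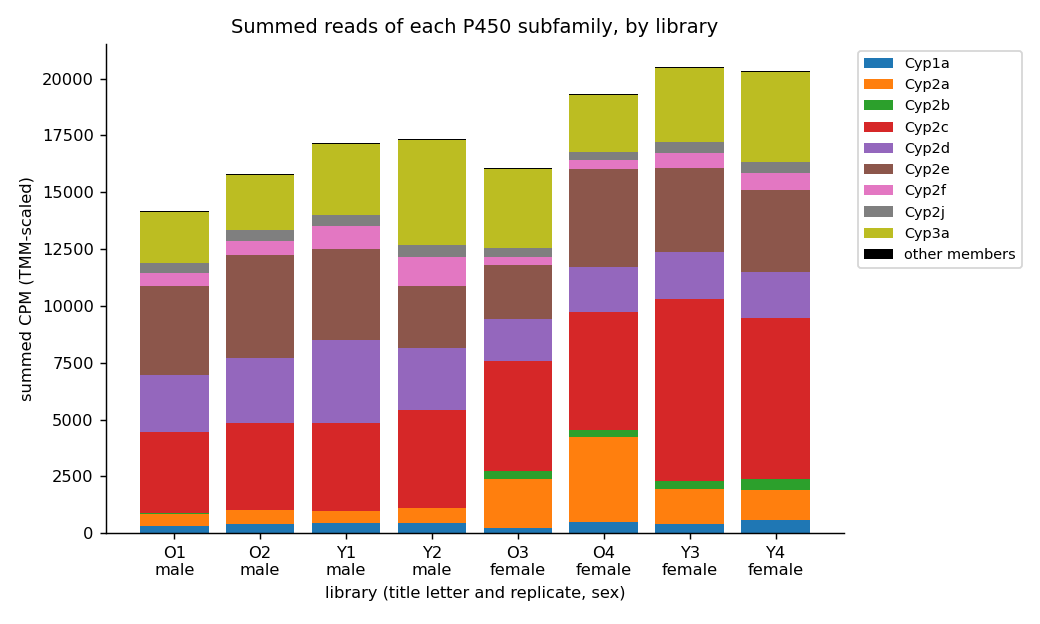
Summed CPM of each subfamily, stacked, in each library. The orange Cyp2a block is tall in females and tallest in O4, the red Cyp2c block is taller in Y3 and Y4 than in any other library, and the green Cyp2b block is visible only in females.

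**Figure D4:**
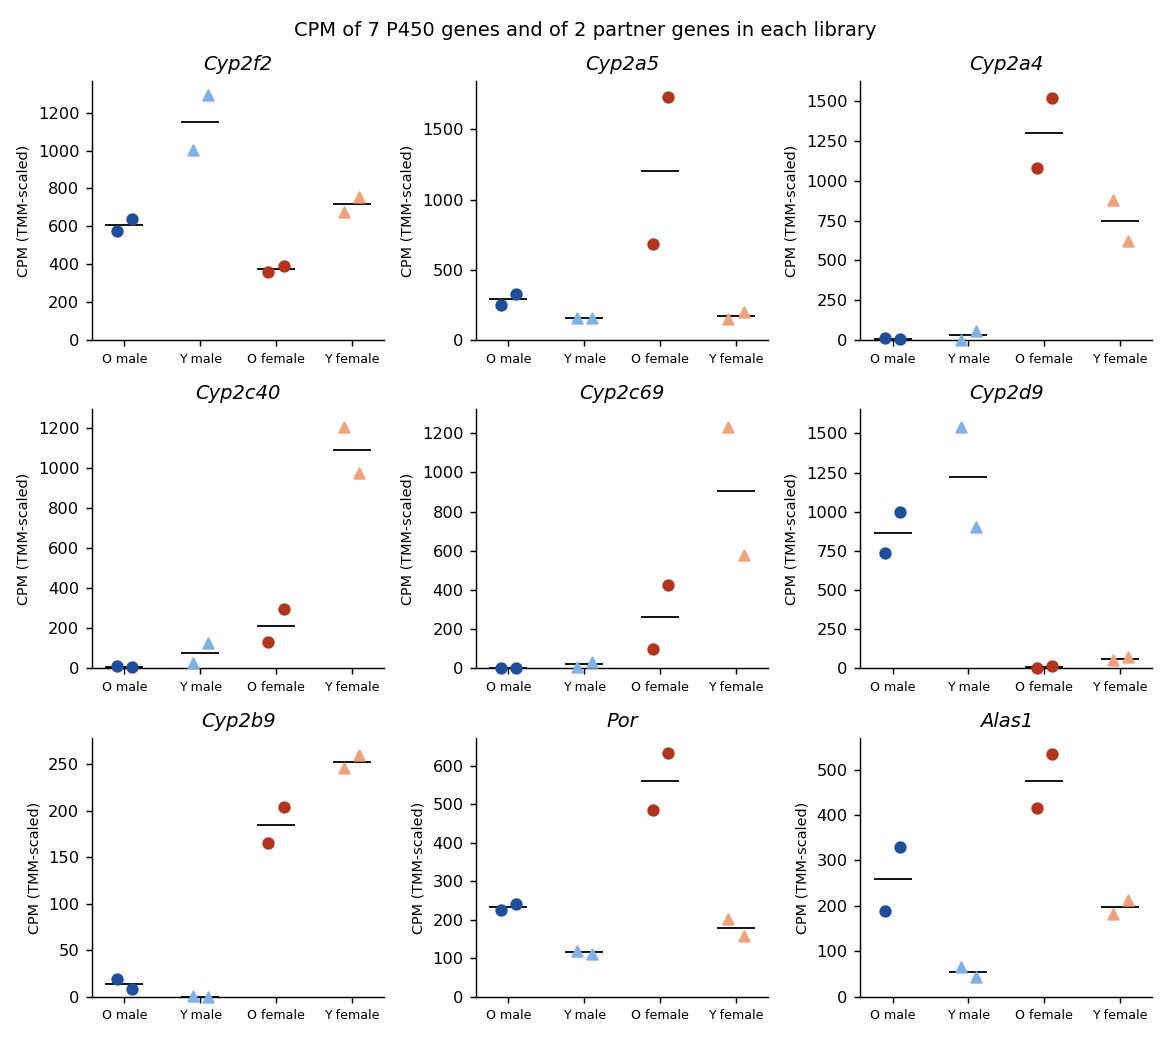
CPM in each library (points; lines are means of 2 libraries) for 7 P450 genes and the partner genes Por and Alas1. Cyp2f2 is lower in O within each sex, Cyp2a5, Por and Alas1 are higher, and Cyp2a4, Cyp2c40, Cyp2c69, Cyp2b9 and Cyp2d9 separate by sex.

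Within males, 1 member was higher in O (0.717% of all genes) and 3 were lower (0.678%). Within females 2 were higher (2.53%) and 7 lower (2.53%). The 2 sexes were fitted together as 4 groups of 2, which share 1 estimate of the spread. In males Cyp2f2, Cyp2c68 and Cyp3a25 fell and Cyp2b9 rose. In females Cyp2f2, Cyp2c68, Cyp2c50, Cyp2c54, Cyp2c67, Cyp2d9 and Cyp2j6 fell and Cyp2c38 and Cyp3a13 rose. In males 8 and in females 18 members had an unadjusted p under 0.05, with no share of all genes counted.

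The epoxygenase gene Cyp2c54 had 237 and 189.5 CPM in O1 and O2, 218 and 217 in Y1 and Y2, 163 and 114 in O3 and O4, and 312 and 337 in Y3 and Y4. Cyp2c50, another epoxygenase, had 607 and 617 CPM in O1 and O2, 589.6 and 441 in Y1 and Y2, 553 and 414 in O3 and O4, and 657 and 855 in Y3 and Y4. Cyp2c67 had 212 and 227 CPM in O1 and O2, 231 and 289.5 in Y1 and Y2, 145 and 234 in O3 and O4, and 502 and 322 in Y3 and Y4. For all 3 the O females lay below the Y females, and in males Cyp2c54 overlapped, Cyp2c50 was higher in both O males and Cyp2c67 lower. Log2 folds in females were -1.23 ± 0.17, adjusted p = 8.00e-05 for Cyp2c54, -0.65 ± 0.18, adjusted p = 0.038 for Cyp2c50 and -1.11 ± 0.26, adjusted p = 0.0476 for Cyp2c67. The Cyp2c54 call was kept under all 15 alternatives, Cyp2c50 was lost without O4 or Y4 and under DESeq2, equal depth or the non-robust fit (adjusted p up to 0.36) and Cyp2c67 without O1, O2, O3, Y1 or Y3 and under equal depth or limma voom (adjusted p up to 0.192).

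Cyp3a13, a Cyp3a gene also known from the intestine, had 182 and 143 CPM in O1 and O2, 153 and 156 in Y1 and Y2, 264 and 302 in O3 and O4, and 139 and 149.7 in Y3 and Y4. It rose in O females by 0.97 ± 0.16, adjusted p = 5.54e-04, kept under all 15 alternatives, and in males its fold was 0.09 ± 0.17, adjusted p = 0.923. Cyp2d9 fell in O females from a level already low in females, with a log2 fold of -2.82 ± 0.54, adjusted p = 0.0493, lost without O1, O2, O3, O4, Y3 or Y4 and under RLE scaling, equal depth or limma voom (adjusted p up to 0.202). The Cyp2j6 fold in females was -1.13 ± 0.25, adjusted p = 0.0077, lost without O3 or Y4 and under DESeq2 or equal depth (adjusted p up to 0.0681). For Cyp2f2 the females gave -0.93 ± 0.15, adjusted p = 5.54e-04, kept under all 15. Cyp2c38 (0.86 ± 0.24, adjusted p = 0.038) was lost without O4, Y3 or Y4 and under DESeq2, equal depth, limma voom or the non-robust fit (adjusted p up to 0.555). Cyp2c68 (-0.56 ± 0.16, adjusted p = 0.0498) was lost without O3, O4, Y3 or Y4 and under DESeq2, equal depth or the non-robust fit (adjusted p up to 0.304).

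Cyp3a25, a close relative of Cyp3a59, had 288 and 282 CPM in O1 and O2, 459 and 544 in Y1 and Y2, 329 and 418 in O3 and O4, and 281 and 294 in Y3 and Y4, with O males below Y males and O females above Y females. It fell in males, with a log2 fold of -0.81 ± 0.15, adjusted p = 0.00624, lost without O1 or Y2 (adjusted p up to 0.109). Cyp2f2 fell with a log2 fold of -0.92 ± 0.15, adjusted p = 0.00172, lost without O1 or Y2 (adjusted p up to 0.0585), and Cyp2c68 with one of -0.71 ± 0.17, adjusted p = 0.042, lost without O1, O2 or Y2 and under DESeq2, equal depth, the filter by title, limma voom or the non-robust fit (adjusted p up to 0.565). Cyp2b9 rested on 57 reads in O males, 51 of them in O1, and 1 read in Y males, a ratio of 35.6 with a 95% counting interval of 6.14 to 1431. Its fitted log2 fold was 4.83 ± 0.69, adjusted p = 4.20e-04, lost without O1 and under equal depth or limma voom (adjusted p up to 0.127). O1 also held 3 reads of Xist, an RNA made in female cells, while the other 3 males held 0, and females 32 to 53. The part of that in the Cyp2b9 result was not tested.

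The difference between the sexes in the O over Y fold was called for 3 members, against 0.339% of all genes. Cyp2b9 gave -5.27 ± 0.72, adjusted p = 8.13e-04, Cyp2c54 -1.22 ± 0.25, adjusted p = 0.0244 and Cyp3a25 1.19 ± 0.22, adjusted p = 0.0137 (log2 fold in females minus that in males). An unadjusted p under 0.05 was seen for 11 members, with no share of all genes counted. Cyp2c54 thus fell in females and stood at -0.02 ± 0.17, adjusted p = 0.997 in males, while Cyp3a25 fell in males and stood at 0.38 ± 0.15, adjusted p = 0.202 in females. The Cyp2b9 call was lost without O1 and under equal depth or limma voom (adjusted p up to 0.12), that of Cyp2c54 without O1, O4, Y1, Y2, Y3 or Y4 and under the non-robust fit (adjusted p up to 0.136) and that of Cyp3a25 without O1, Y2 or Y3 and under the non-robust fit (adjusted p up to 0.0853). The difference was not called for Cyp2a5 or for Cyp3a13 (1.94 ± 0.73, adjusted p = 0.618, and 0.88 ± 0.23, adjusted p = 0.129).

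**Figure D5:**
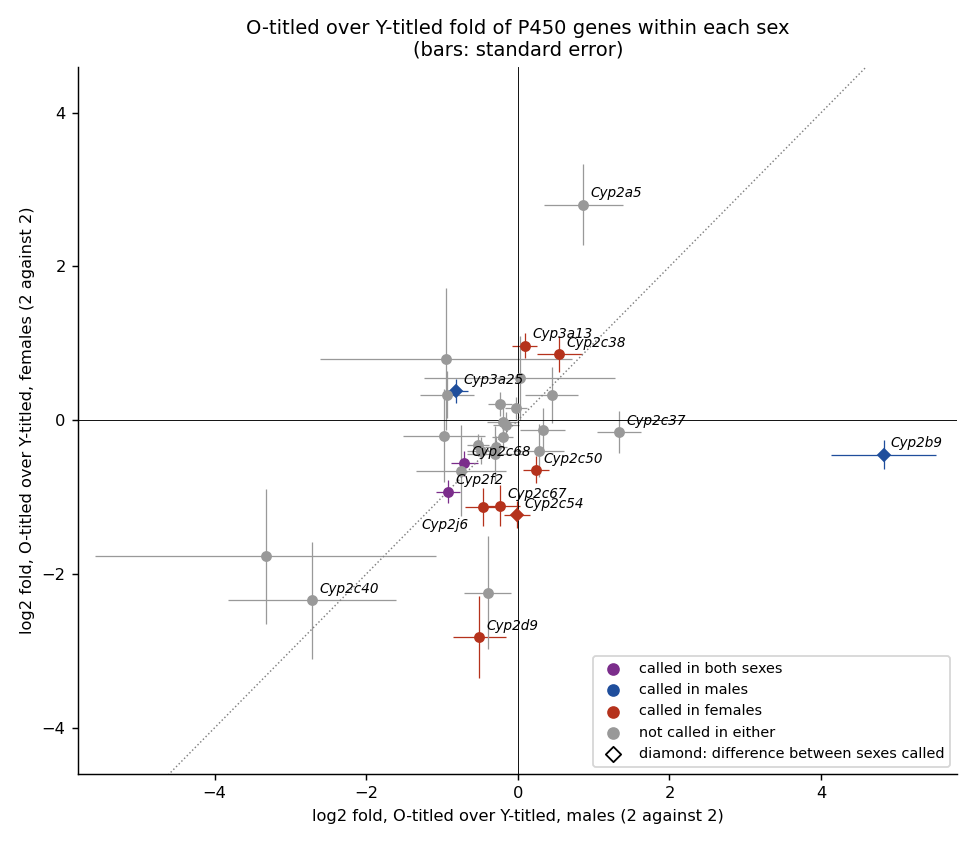
Log2 fold, O over Y, in males (horizontal) and females (vertical) for the 33 tested members with a male mean of at least 5 CPM or a call in males, with approximate standard errors. Cyp2f2 and Cyp2c68 lie near the dotted line of equal folds, while Cyp2c54, Cyp3a25 and Cyp2b9 (diamonds) lie off it.

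The genes that serve these enzymes were read beside them. Of 16 electron donors and haem genes, all tested, 2 were higher and 0 lower in O. Por, the electron donor of all microsomal P450 enzymes, had 226 and 242 CPM in O1 and O2, 119.8 and 112 in Y1 and Y2, 486 and 633 in O3 and O4, and 201 and 157 in Y3 and Y4. Alas1, the rate-limiting enzyme of haem synthesis, had 188 and 329.6 CPM in O1 and O2, 64.6 and 43.3 in Y1 and Y2, 416 and 534 in O3 and O4, and 182 and 214 in Y3 and Y4. For both, O exceeded Y in each sex, and both were called within males and within females. Over all libraries the log2 folds were 1.34 ± 0.15, adjusted p = 1.85e-05 for Por and 1.67 ± 0.27, adjusted p = 0.0189 for Alas1. Por was also higher in females (0.96 ± 0.14, adjusted p = 4.19e-04). Cyb5a, cytochrome b5 and the most abundant of the list, was not called (O over Y 0.07 ± 0.11, adjusted p = 0.844).

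Of 33 regulators listed, 30 were tested. Between O and Y 1 was higher and 0 lower: the clock output factor Tef, at 66.5 and 92.1 CPM in O1 and O2, 28.2 and 35.5 in Y1 and Y2, 95.0 and 114 in O3 and O4, and 12.7 and 16.8 in Y3 and Y4, by 2.03 ± 0.28, adjusted p = 0.00203. Its relative Dbp was called within males (2.04 ± 0.37, adjusted p = 0.0368) and within females (5.44 ± 0.54, adjusted p = 5.13e-04), where O3 and O4 had 193 and 167 reads and Y3 and Y4 had 7 and 0. Tef was called in both sexes too. Hnf4a fell in O females (-0.56 ± 0.15, adjusted p = 0.0329), and Nr0b2, a corepressor of bile acid signalling, in O males (-2.11 ± 0.33, adjusted p = 0.00397). Between the sexes, Nr1i2 was higher in females (0.60 ± 0.16, adjusted p = 0.0414), and Hlf (-0.91 ± 0.22, adjusted p = 0.0287) and the growth hormone receptor Ghr (-0.40 ± 0.10, adjusted p = 0.0392) were lower. Cebpa, a liver transcription factor, was the most abundant of the list and was not called. No hour of collection is given in the labels, and the part of these genes in the member results was not tested.

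Among markers of other liver cells, 0 of 10 Kupffer cell and macrophage genes, 0 of 6 sinusoidal endothelium genes, and 1 of 4 tested stellate cell and fibroblast genes (Dcn, 0.59 ± 0.12, adjusted p = 0.00744), 0 of 1 tested bile duct gene and 0 of 1 tested lymphocyte gene were called between O and Y. Summed Kupffer and macrophage markers were 469.8 to 1198 CPM in O and 587 to 706 in Y, and stellate and fibroblast markers 216 to 261 in O and 134 to 191 in Y, without overlap. Timd4 of the Kupffer list, Des and Col1a1 of the stellate list, Krt19, Krt7 and Epcam of the bile duct list and Cd3e, Ptprc and Nkg7 of the lymphocyte list were at 0 in at least 1 library. In females 1 of 7 pericentral genes (Oat, 0.77 ± 0.19, adjusted p = 0.0307) was higher and 1 of 5 hepatocyte markers (Ttr, -0.54 ± 0.14, adjusted p = 0.0263) lower in O. Their part in the member results was not tested.

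Transcript usage, the share of each listed transcript within a gene, could be tested for 9 members. None was called between O and Y or between the sexes by edgeR's diffSpliceDGE, and 0 of 4408 genes were called in either (0% of all genes), with 0 members at an unadjusted p under 0.05. The median p over all genes was 0.765 and 0.768, so these p-values crowd towards 1 and a count of 0 carries little. Most members had 1 read transcript, and the most read transcript of Cyp2e1 took 83.9% of its reads, of Cyp2c40 74.6% and of Cyp2c50 85.1%.

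Members under the filter were rare in every library. Cyp1a1, a main Ahr target, had 9 reads in all, Cyp1b1 had 4, Cyp2d11 21, Cyp2d12 16, Cyp2d34 12, Cyp2j9 14, Cyp2j13 3, Cyp2s1 3, Cyp3a57 2 and Cyp2b23 1. Those with no read were Cyp2b19, Cyp2c65, Cyp2c66, Cyp2j7, Cyp2j8, Cyp2j11, Cyp2j12, Cyp2t4 and Cyp2w1, which at these depths leaves levels of up to 1.15 CPM in O1 undetectable. The tested members not named above with values, Cyp2c23, Cyp2c39, Cyp2c55, Cyp2d22, Cyp2d40 and Cyp3a59, had no call in any comparison and mean levels from 4.85 CPM (Cyp2c39) to 273 CPM (Cyp2c23, an epoxygenase).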

How the data were processed

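Polyadenylated RNA of 8 mouse livers was sequenced as native RNA on MinION flow cells, per the labels' protocols. The authors deposited, per the file headers, raw read counts per transcript for each library, with the total and mapped reads and the mean length of the reads of each transcript. The submitters' processing notes name minimap2 2.24, the build mm10 and DESeq2, with no role stated. How reads were counted, with which annotation release, and what was done with reads matching more than 1 transcript is not given in the sources used here.

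Counts were summed per gene. Genes were kept with filterByExpr of edgeR 4.0.16 (minimum count 10, 4 groups of sex and title), scaled by TMM and tested with the robust quasi-likelihood test in R 4.3.3, with Benjamini-Hochberg adjustment over 7668 genes at 0.05. O over Y was fitted with sex, and female over male with title, as covariate. Within-sex folds and their difference came from a fit of the 4 groups. Transcript usage was tested with diffSpliceDGE. Errors after log2 folds are approximate standard errors, back-calculated as the absolute log2 fold divided by the square root of the test's F value. Those after means are SDs. The alternatives were RLE scaling, DESeq2 1.42.0, limma 3.58.1 with voom, no count filter, a non-robust fit, equal depth, fits without the covariate, the replicate number as a block, leaving out each library and, added after seeing the data, a filter by the 2 title groups. The fit was tested on simulated counts. Samples of the same sex and title differed beyond sampling noise (chi-square over degrees of freedom 3.92 to 10.3), so none was merged.

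Same-numbered O and Y libraries did not deviate together (r of -0.04 within sex and title). With 2 libraries per sex and title their deviations mirror each other, so this check cannot decide whether the numbers mark pairs. They were not treated as pairs in the main fit. The members and lists were chosen with earlier results of these data known. Library values are given for members called in any comparison and for the most abundant of each subfamily, limited to the 25 with the highest mean CPM. Sequences come from RefSeq promoters (GRCm38.p6, 50 members matched) and GENCODE M21 transcripts, read with Biopython 1.88, and figures were drawn with matplotlib 3.10.9.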

Additional observations from a re-analysis of the deposited data

Results flagged for a closer look

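In 5 of 94 groups of 4 libraries, 1 library lay apart from the other 3 by more than the 95% critical value of Dixon's gap test. Chance flags about 1 in 20 groups. Among the O libraries, O3 was highest for Cyp2c23 at 346 CPM, and O4 was highest for Cyp3a44 at 671 CPM and for Cyp3a16 at 89.0 CPM. Among the Y libraries, Y3 was highest for Cyp3a16 at 22.7 CPM and for Cyp2c39 at 10.9 CPM. The title groups hold both sexes, and Cyp3a44 and Cyp3a16 were almost unread in males.

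The O over Y log2 fold differed between females and males, by edgeR's interaction test, for Cyp2b9 (-5.27), Cyp3a25 (1.19) and Cyp2c54 (-1.22), as females minus males.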

How the results depend on the processing

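No called member changed direction under any alternative. Between O and Y, 5 members were called, 3 at equal depth, 10 with no count filter and 0 without sex in the fit. With the replicate block in place of sex 2 were called, and since the replicate numbers also carry sex this fit does not separate pairing from sex. Leaving out 1 library gave 2 to 6, with 3 without Y1 or Y3 and 2 without Y4. Between the sexes 14 became 5 without title in the fit and 5 to 11 without 1 library: 5 without O1 or Y1, 6 without Y3, 7 without O2, 8 without O4 and 9 without Y2 or Y4. In females 9 became 4 at equal depth and 5 to 10 without 1 library, with 5 without Y3 or Y4. In males 4 became 2 at equal depth, 2 with limma voom and 0 to 6 without 1 library, with 0 without O1 and 1 without Y2. The 3 differences between the sexes became 5 with DESeq2, 8 with no count filter, 1 in the non-robust fit and 0 to 6 without 1 library, with 0 without O1, 6 without O3 and 1 without Y2 or Y3. Where a library is left out of a group of 2, the lone library is assumed to vary like the others. The causes were not tested. Over all 8 libraries, subfamily sums kept their direction on CPM of all mapped reads and without members under the count filter, but within males the Cyp2a ratio of O over Y turned from 0.985 to 1.03 on CPM of all mapped reads. The shallowest library, Y2, limits detection to 5.91 CPM.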
